A study of Mus musculus with 50 samples.

Results

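The genes of the major histocompatibility complex (MHC), in mice the H2 complex on chromosome 17, encode the molecules that show peptides to T cells. They were examined here together with their partners in antigen presentation in the gastrocnemius, a hindlimb muscle, of aging mice. Every gene symbol that begins with H2- was taken, with B2m, Tap1, Tap2, Tapbp, Cd74, Ciita, Nlrc5 and Erap1, which gave 45 of the 23880 genes in the deposited tables. Of these, 27 were class I heavy chain genes, 9 were class II chain genes, 8 were the named partners, and 1, H2-Ke6, encodes a hydroxysteroid dehydrogenase and no MHC chain. A gene was kept for description where it reached a level of 1 TPM, transcripts scaled for gene length and library size, in at least 8 mice, as 26 of the 45 did: 12 class I genes, 6 class II genes, 7 partners and H2-Ke6.

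The 50 mice were wild type C57BL/6JRj males at 8, 18, 22, 24, 26 or 28 months of age, with 8 mice at each of the first 4 ages and 9 at each of the last 2. All were singly caged and fed an AIN93M diet. Per the study's methods, the 8 and 18 months-old mice were only acclimatized to this diet ahead of the end measures, whereas the 22 to 28 months-old mice ate it from soon after 18 months of age on, and mice found ill or with tumours were left out. Diet history and age therefore cannot be told apart when an age from 22 months on is set against 8 months. The widest comparison within the later regime is 28 against 22 months, and there too time on the diet rises with age. Each mouse gave 1 stranded polyA library of whole muscle with 13607229 to 21267375 counted reads, and replicate numbers were read as names of mice within an age.

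Class I molecules are built from a heavy chain and the shared light chain B2m. They sit on nearly all nucleated cells and display peptides from inside the cell, which proteasomes cut, the Tap1 and Tap2 transporter carries into the endoplasmic reticulum, Erap1 trims and Tapbp (tapasin) helps to load. Class II molecules are pairs of an alpha and a beta chain. They are made mainly by dendritic cells, macrophages and B cells, travel with the invariant chain Cd74 and take up peptides from engulfed material with the help of H2-DM. Nlrc5 and Ciita are the main transcriptional coactivators of class I and class II genes, and interferon gamma raises both sets. Healthy muscle fibres are known to carry little class I and no class II, and whole muscle also holds vessels and immune cells. The strain carries the H2 b haplotype, in which no H2-Ea chain is made.

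The promoters of 2 groups of genes are shown because several of their members share spaced letters in front of the start site. The sequences are RefSeq promoter windows on GRCm38.p6 that run from 250 bases before to 50 bases after a gene's start, and 19 of the 26 kept members had an entry. The letter patterns were chosen after the windows had been seen, and a match is a description, not a binding site. In the class II group, capitals mark GNAAC and, 30 to 34 bases further on in the gene's direction, ATTGG, the letters of the classical X and Y boxes. H2-Aa lies at chr17:34287852-34287919 on the minus strand, H2-Eb1 at chr17:34305761-34305827 and H2-DMb1 at chr17:34153082-34153149, both on the plus strand.
H2-Aa: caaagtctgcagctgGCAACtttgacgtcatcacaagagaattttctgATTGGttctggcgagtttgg
H2-Eb1: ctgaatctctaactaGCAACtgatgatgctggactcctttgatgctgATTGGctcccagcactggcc
H2-DMb1: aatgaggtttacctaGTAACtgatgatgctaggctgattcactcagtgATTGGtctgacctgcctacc
This spaced pair was in 3 of the 5 kept class II genes that had a window and in 0.481% of all 27025 gene symbols, whereas ATTGG alone, on either strand, was in 41.06% of them.

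In the class I group, capitals mark 3 patterns. The first is GGGNNTCCC, the letters of an NF-kB site, which reads GGGATTCCC in H2-K1, H2-D1 and H2-Q7 and is not in the B2m window. The second is TGACG, the core of many CRE sites, and the last is the ATTGG of the class II group. The second lay 24 to 26 bases before the last in H2-K1, H2-D1, H2-Q7, H2-M3, B2m and H2-Aa, and in 0.1221% of all symbols. The first pattern, searched on both strands, was in 5 of the 9 kept class I genes with a window and in 6.442% of all symbols. The H2-K1 stretch is chr17:34000349-34000467 on the minus strand, H2-D1 is chr17:35262914-35263032, H2-Q7 is chr17:35439013-35439129 and B2m is chr2:122147584-122147648, the last 3 on the plus strand. H2-Q10, at chr17:35469904-35470025 on the plus strand, is shown because it is the class I gene that fell with age, and its capitals mark the bases that align with the capitals of H2-D1. It matched H2-D1 at 99 of the 119 bases, a share of 83.2%, against 89.9% for H2-K1 and 84.0% for H2-Q7, and its whole window held no ATTGG. Its 1 match to the first pattern lies on the opposite strand, not at the aligned site. Whether these letters go with the levels by age was not tested.
H2-K1: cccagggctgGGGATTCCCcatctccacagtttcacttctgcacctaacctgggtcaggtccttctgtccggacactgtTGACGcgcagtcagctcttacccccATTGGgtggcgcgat
H2-D1: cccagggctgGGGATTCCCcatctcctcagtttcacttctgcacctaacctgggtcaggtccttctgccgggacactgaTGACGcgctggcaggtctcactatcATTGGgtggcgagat
H2-Q7: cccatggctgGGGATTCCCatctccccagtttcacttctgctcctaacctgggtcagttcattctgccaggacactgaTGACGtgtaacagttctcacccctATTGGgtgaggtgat
H2-Q10: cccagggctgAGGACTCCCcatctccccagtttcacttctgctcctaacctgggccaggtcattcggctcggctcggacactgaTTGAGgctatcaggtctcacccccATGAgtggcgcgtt
B2m: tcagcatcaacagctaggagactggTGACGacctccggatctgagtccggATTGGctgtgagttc

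Before the ages are compared, some single mice have to be named. Replicate 2 of 28 months had a summed class I level of 632 TPM against 256 to 355 TPM in the other 8 mice of its age. In that mouse the markers of all leukocytes (Ptprc, Coro1a, Laptm5, Tyrobp, Fcer1g) summed to 208 TPM against 46.7 to 69.1 TPM, macrophage markers to 399 TPM against 160 to 289 TPM, and muscle fibre markers to 135783 TPM against 172770 to 217320 TPM. Its class II sum of 141 TPM lay inside the range of the others, 70.1 to 228 TPM. Replicate 6 of 18 months was high in both classes, with 525 TPM of class I and 360 TPM of class II against at most 424 and 248 TPM in the other 7 mice. Replicate 6 of 26 months held 440 TPM of class I. Many results at 28 months that rest on replicate 2 are given with and without it. Where no value without it stands beside a result, that mouse is included.

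Class I made the larger part of the MHC transcripts of the muscle. Over the 50 mice H2-D1 averaged 124.8 TPM and H2-K1 109.4 TPM, and these 2 classical heavy chains together held 73.7% of the summed class I level (range over mice 68.9% to 79.0%). H2-T22, H2-T23, which encodes the Qa-1 chain, and H2-Q4 followed at 29.7, 16.7 and 15.5 TPM. H2-Q7 and H2-Q6, which encode Qa-2 chains, stood at 5.62 and 4.79 TPM, and H2-M3, which presents formylated peptides, at 2.96 TPM. H2-T24, H2-Q10, H2-Q5 and H2-T10 lay between 1.02 and 2.33 TPM. H2-Q5 and H2-T10 are annotated as polymorphic pseudogenes.

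Near copies limit how firmly single class I genes can be read, since reads that fit several genes had been split equally among them. Of the 31-base words in the transcripts of H2-T10, 58.8% also occurred in another gene, most of them in H2-T22, and 47.5% of those of H2-Q6 did, most of them in H2-Q7. The share was 25.9% for H2-D1, 21.0% for H2-K1, 19.6% for H2-Q10 and 4.62% for H2-M3. In class II, H2-DMb1 and H2-DMb2 shared 37.6% and 40.7% of their words, while H2-Aa and H2-DMa, like B2m, shared none.

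Class II transcripts came mostly from H2-Aa, H2-Ab1 and H2-Eb1, which together held 93.4% of the class II sum (90.8% to 95.7%). H2-Aa averaged 74.4 TPM, H2-Ab1 56.6 TPM and H2-Eb1 44.3 TPM over the 50 mice, beside 106.3 TPM of Cd74. H2-DMa and H2-DMb1, the 2 chains of the peptide-loading factor, lay at 5.50 and 5.17 TPM, and H2-DMb2 at 0.745 TPM. H2-Oa and H2-Ob, chains of the H2-DM modulator H2-O, reached at most 0.580 and 0.884 TPM in any mouse. Ciita had counts in all 50 mice but at most 0.773 TPM, whereas Nlrc5 averaged 1.33 TPM.

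The other 16 members stayed under the level filter. H2-Q1 and H2-M9 averaged 0.656 and 0.527 TPM and passed 1 TPM in 2 mice each, while H2-Bl, H2-M2, H2-M5, H2-T3, H2-Q2, H2-M1, H2-M11 and H2-Eb2 passed it in none. H2-M10.1 to H2-M10.6, genes known from the vomeronasal organ, had no count in any mouse. At the edge of the filter, H2-DMb2 passed in 12 mice and H2-T10 in 25. The tests below used counts and their own filter, 1 CPM (counts scaled for library size alone) in at least 8 mice, which 27 members passed, Ciita and H2-Q1 among them and H2-DMb2 not.

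The summed class II level was higher on average from 22 to 26 months than at the youngest and the oldest age. The mean of 8 months was 152.5 TPM, with an SD of 50.004 over 8 mice. The 8 mice of 18 months averaged 187.3 TPM (SD 83.4), those of 22 months 218.4 TPM (SD 40.7) and those of 24 months 206.5 TPM (SD 43.4). For 9 mice each, 26 months gave 213.9 TPM (SD 67.5) and 28 months 147.0 TPM (SD 45.2). The SDs were as large as most of these differences, and every pair of ages overlapped. In bulk muscle, fewer class II cells and less class II RNA per cell cannot be told apart.

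H2-Aa, the alpha chain of the I-A molecule (chr17:34282744-34287823 on GRCm38, minus strand), ran from 43.2 to 105 TPM at 8 months with a median of 52.5 TPM. At 22 months it ran from 73.9 to 104 TPM with a median of 79.3, at 26 months from 43.6 to 119 with a median of 94.5, and at 28 months from 29.4 to 85.7 with a median of 61.1. Of the 9 mice at 28 months, 7 lay below all 8 mice of 22 months, and the 2 that overlapped were replicates 6 and 7. H2-Ab1, its beta chain, had medians of 39.5, 61.6, 68.8 and 41.2 TPM at 8, 22, 26 and 28 months, and H2-Eb1 of 29.0, 48.7, 58.3 and 36.8 TPM. Cd74 followed the same order of medians, with 83.3, 120.5, 133.2 and 92.3 TPM.

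**Figure D1:**
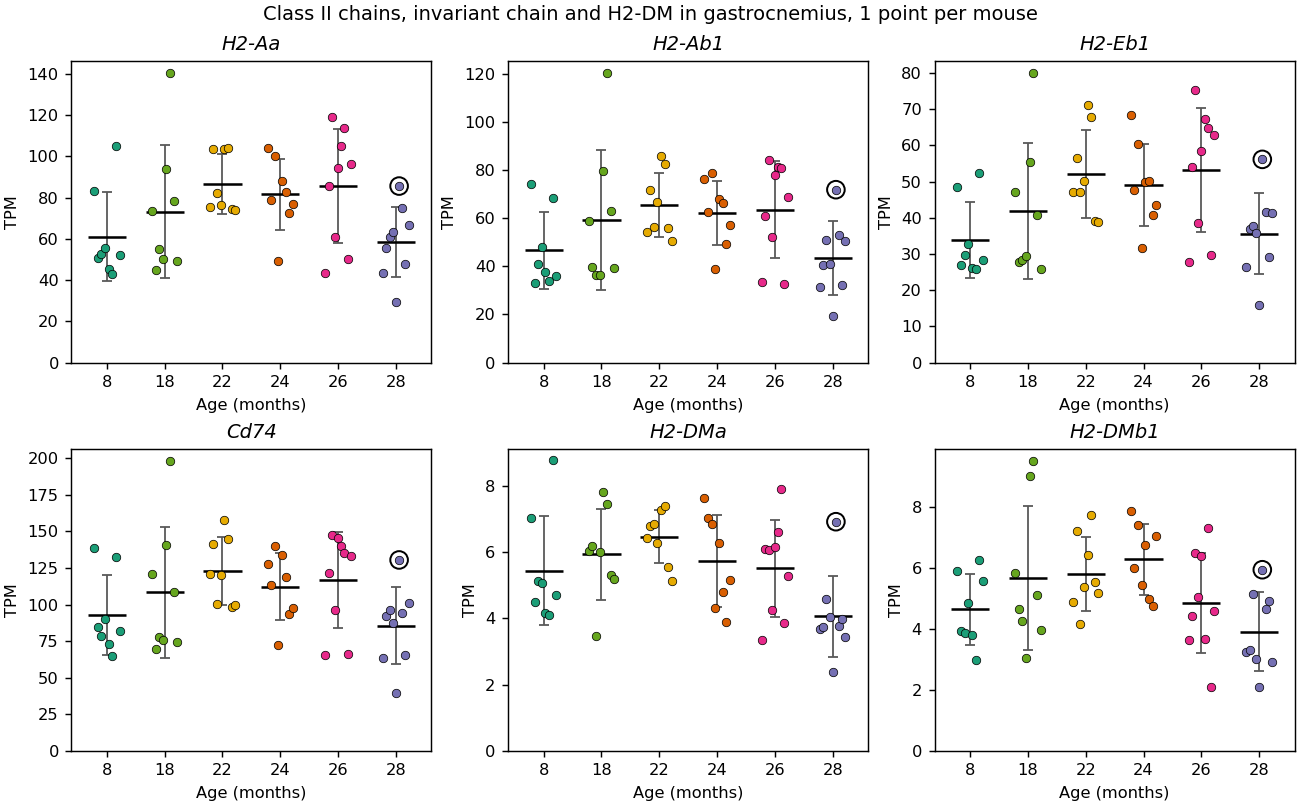
TPM of H2-Aa, H2-Ab1, H2-Eb1, Cd74, H2-DMa and H2-DMb1 (vertical axes, from 0) by age in months (horizontal axes), with 1 point per mouse, black lines at the mean and whiskers of 1 SD. Most 28 months-old mice sit below the 22 months-old mice, 7 of 9 for H2-Aa and 8 of 9 for H2-DMa, and the ringed point is replicate 6 of 28 months.

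In the test of the oldest against the youngest mice, none of the 5 class II genes passed. The test was edgeR's quasi-likelihood test in 1 fit of all 6 ages with Benjamini-Hochberg adjustment over 12586 genes and a threshold of 0.01, and in it 39.6% of all genes passed for 28 against 8 months. At an unadjusted p under 0.05, 1 class II gene passed, H2-DMa, with a log2 fold change of -0.50 (SE 0.18, adjusted p = 0.0181), and DESeq2 also called none of the 5. The other 4 lay between -0.27 for H2-DMb1 and -0.00037 for H2-Eb1, with a median of -0.15 over the 5 against 0.0072 over all genes tested.

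Against 22 months, with the diet regime shared but not the time on it, all 5 class II genes were lower at 28 months in the fit and 1 passed. H2-DMa (chr17:34119541-34139101), the alpha chain of H2-DM, ran from 5.12 to 7.41 TPM at 22 months and from 2.37 to 6.92 TPM at 28 months. All 28 months-old mice but replicate 6 lay below the lowest 22 months-old mouse. Its log2 fold change was -0.71 (SE 0.18, edgeR adjusted p = 0.00169), a level 0.612 times that of 22 months. H2-DMb1 stood at -0.63 (adjusted p = 0.0147), H2-Ab1 at -0.61 (0.0264), H2-Aa at -0.60 (0.0179), H2-Eb1 at -0.59 (0.0235) and Cd74 at -0.56 (0.0197), none of which passed 0.01. The median over the 5 class II genes was -0.61, beside 0.0070 over all genes. In this comparison 2 of the 27 members passed, both lower, beside 11.5% of all genes that were lower.

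The count at 28 against 22 months depended on single mice, and on replicate 6 of 28 months most. This mouse, ringed in the plot of class II levels, had the highest class II sum of its age, 228 TPM against 70.1 to 179 TPM in the other 8, while its macrophage markers summed to 238 TPM, inside the range of the others. Without it 7 members passed: H2-DMa (adjusted p = 0.000182), H2-DMb1 (0.00505), Cd74 (0.00613), H2-Aa (0.00726), H2-Ab1 (0.00754), H2-Eb1 (0.00754) and H2-M3 (0.00817). All 7 were lower, where 13% of all genes were lower in that fit. Leaving out the mouse highest in class II lowers the class II values of its age, so these calls are no separate evidence. Without replicate 3 of 28 months 4 passed, H2-DMb1 and H2-T22 beside H2-DMa and H2-M3, all lower, where 14.6% of all genes were lower. For 28 against 8 months H2-DMa passed without replicate 6 of 28 months. H2-DMa at 28 against 22 months passed in the fits without each of the 50 mice in turn, and the others that are class II genes, and Cd74, passed in at most 2 of those 50 fits.

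Within the phase that the study calls sarcopenic, 28 against 26 months, the same 5 class II genes had negative log2 fold changes, with a median of -0.58 and 4 of them at an unadjusted p under 0.05. No gene of the whole table passed here, 0% of 12586 by edgeR, so adjusted p-values of H2-Eb1 (-0.62, SE 0.21), H2-Aa (-0.58, SE 0.20) and Cd74 (-0.50, SE 0.19) were 0.289, 0.290 and 0.326, and DESeq2 called none of the members either. This comparison shares its 28 months-old mice with the one against 22 months and is no separate evidence. For 26 against 24 months no gene passed either, again 0% of the table, and no member had an unadjusted p under 0.05.

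The earlier ages gave no calls among the members, in a table with few calls of any kind. At 18 against 8 months 0 of the 27 members passed (0.0715% of all genes), at 22 against 8 months 0 (0.0397%) and at 24 against 8 months 0 (0.612%), with 3, 5 and 4 members at an unadjusted p under 0.05 in edgeR and none called by DESeq2. The class II medians were 0.28, 0.46 and 0.39 on the log2 scale at these ages and 0.42 at 26 months. H2-Eb1 came nearest among the chains, at 0.62 (SE 0.22, adjusted p = 0.0230) for 26 against 8 months, where it passed without replicate 7 of 8 months, and Ciita at 0.90 (SE 0.25, adjusted p = 0.0363) for 24 against 8 months, while Ciita stood at 0.098 at 28 months. All these comparisons share the 8 months-old mice.

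**Figure D2:**
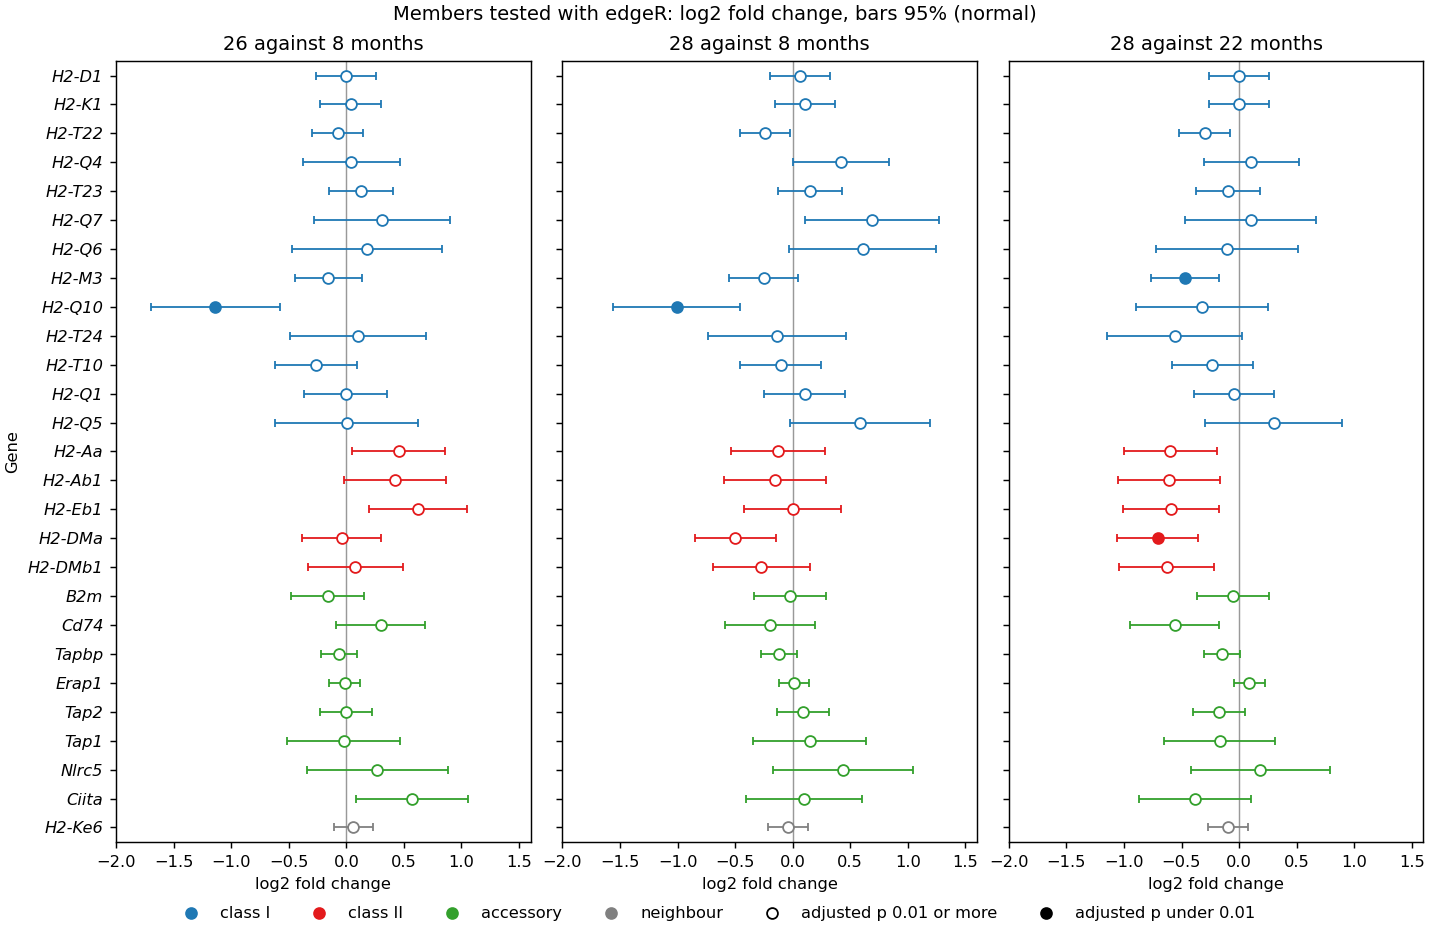
Log2 fold change (horizontal axes) of the 27 members tested, by gene (vertical axis), for 26 against 8, 28 against 8 and 28 against 22 months, with bars of the 95% normal interval (from the SE) and filled points for an adjusted p under 0.01. H2-Q10 is filled at -1.14 and -1.01 in the first 2 panels, and H2-DMa and H2-M3 are filled at -0.71 and -0.47 in the third, where all class II genes lie left of 0.

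H2-Q10 was lower at 26 and 28 than at 8 months, the single member to pass against 8 months. Age and diet history cannot be told apart in these comparisons. It encodes a secreted class I chain that is known mainly from liver. At 8 months it ran from 1.63 to 4.33 TPM with a median of 3.57, at 26 months from 0.768 to 1.86 TPM with a median of 1.33, and at 28 months from 0.769 to 2.001 TPM with a median of 1.46. Of the 9 mice, 7 at 26 months and 6 at 28 months lay below all 8 mice of 8 months. The ages between had wide ranges, up to 6.75 TPM in replicate 5 of 18 months and 4.77 TPM in replicate 5 of 24 months. The log2 fold change was -1.14 (SE 0.29, edgeR adjusted p = 0.00235) for 26 against 8 months, 1 of 27 members where 18.4% of all genes passed. It was -1.01 (SE 0.28, adjusted p = 0.00261) for 28 against 8 months, where 1 of 27 members passed against the 39.6% given above, and -1.02 without replicate 2 of 28 months. At 22 and 24 months it stood at -0.68 (adjusted p = 0.445) and -0.71 (adjusted p = 0.164), and 28 against 22 months gave -0.33 (adjusted p = 0.373).

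In the test of any difference among the 6 ages H2-Q10 was again the single member past the threshold (edgeR F test, adjusted p = 0.00503), where 35.4% of all genes passed. H2-DMa (adjusted p = 0.0159), Ciita (0.0207), H2-M3 (0.0221), H2-Eb1 (0.0230), H2-DMb1 (0.0352) and H2-Aa (0.0493) came next, and H2-Ab1 had an adjusted p of 0.0881. The call of H2-Q10 was lost without replicate 1, 5 or 7 of 8 months. The counts behind this gene are low, with a median of 32 reads per mouse, and 19.6% of its 31-base words occur in other genes.

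The classical heavy chains did not pass a test at any age. H2-K1 (chr17:33996017-34000347, minus strand) ran from 85.4 to 118 TPM at 8 months with a median of 99.7, and at 28 months from 90.7 to 118 TPM in 8 mice with replicate 2 at 230 TPM. H2-D1 (chr17:35262730-35267499) ran from 97.2 to 143.5 TPM at 8 months, and at 28 months from 98.9 to 126 TPM with replicate 2 at 269 TPM. Their log2 fold changes for 28 against 8 months were 0.11 (SE 0.13, adjusted p = 0.517) and 0.067 (SE 0.13, adjusted p = 0.690), and both changed sign without replicate 2, to -0.040 and -0.091. B2m ranged from 166 to 226 TPM at 8 months and from 146 to 221 TPM at 28 months, with replicate 2 at 533 TPM. Its value was -0.025 with that mouse and -0.26 without it (adjusted p = 0.905 and 0.0866).

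**Figure D3:**
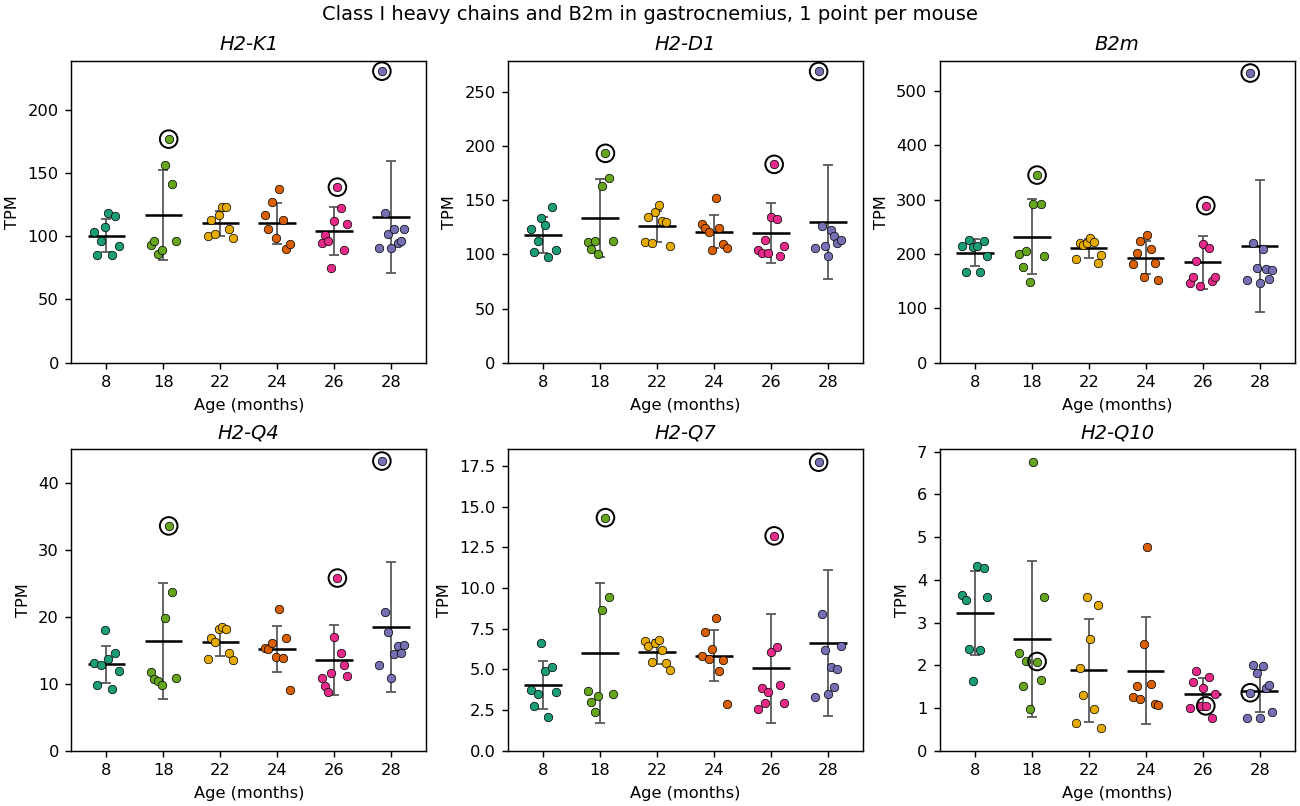
TPM of H2-K1, H2-D1, B2m, H2-Q4, H2-Q7 and H2-Q10 (vertical axes, from 0) by age in months (horizontal axes), with 1 point per mouse, black lines at the mean and whiskers of 1 SD. The ringed points are replicate 6 of 18 months, replicate 6 of 26 months and replicate 2 of 28 months, which stand at the top of their age for all of these genes but H2-Q10, where the 28 months-old mice sit between 0.769 and 2.001 TPM.

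The Q genes other than H2-Q10 had positive values at 28 against 8 months that depended on the same mouse. H2-Q7 stood at 0.69 (SE 0.30, adjusted p = 0.0471), H2-Q6 at 0.61 (adjusted p = 0.113), H2-Q5 at 0.59 (adjusted p = 0.106) and H2-Q4 at 0.42 (adjusted p = 0.0950), and none passed. Without replicate 2 of 28 months they were 0.42, 0.38, 0.36 and 0.20, and the adjusted p of H2-Q7 was 0.225. In that mouse H2-Q7 read 17.7 TPM and H2-Q4 43.3 TPM, where the next mice of the age read 8.38 and 20.7 TPM. H2-T22 stood at -0.24 (adjusted p = 0.0669), H2-T23 at 0.15, H2-T24 at -0.14 and H2-T10 at -0.10. Over the 13 class I genes tested the median was 0.11 with all mice and -0.040 without replicate 2, beside 0.0072 over all genes. Summing the class I counts, which avoids the choice among copies, gave a log2 ratio of 0.082 for 28 over 8 months, -0.050 without replicate 2 of 28 months, and at most 0.20, at 18 months, for the other ages.

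H2-M3 was the other gene lower at 28 than at 22 months. It ran from 2.87 to 4.02 TPM at 22 months and from 1.64 to 3.73 TPM at 28 months, where 7 of 9 mice lay below all mice of 22 months. Its log2 fold change of -0.47 (SE 0.15, edgeR adjusted p = 0.00993) lay just inside the threshold, and it passed in 15 of the 50 fits that left out 1 mouse, with an adjusted p of 0.0231 without replicate 2 of 28 months.

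None of the genes of peptide transport, trimming and loading passed the test. The values farthest from 0 against 8 months were those of Tap1, 0.51 at 18 months (SE 0.25, edgeR adjusted p = 0.9995) and 0.32 at 22 months (SE 0.25, edgeR adjusted p = 0.757). Tap2 stood at 0.26 at 22 months (SE 0.12, edgeR adjusted p = 0.469). For 28 against 8 months Tap1 stood at 0.15 (SE 0.25), Tap2 at 0.088 (SE 0.11), Tapbp at -0.12 (SE 0.08) and Erap1 at 0.012 (SE 0.07), with adjusted p-values from 0.194 to 0.893. Tap1 ran from 1.12 to 4.67 TPM over all mice but replicate 6 of 18 months, which read 9.11 TPM. Nlrc5 read 6.97 TPM in that mouse and 3.13 TPM in replicate 2 of 28 months, against at most 2.05 and 1.63 TPM in the other mice of these ages. The log2 fold change of Nlrc5 was 0.44 (SE 0.31, adjusted p = 0.237) and that of H2-Ke6, whose TPM averaged 57.1 at 8 and 58.1 at 28 months, was -0.040 (SE 0.09). For 28 against 8 months 0 of the 8 partners passed in edgeR, 0 had an unadjusted p under 0.05 and DESeq2 called 0, beside the 39.6% of all genes.

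For 6 pairs of genes, levels were also compared between mice of the same age. The mean of each age was subtracted from log2(TPM + 1), mice were permuted within ages 100000 times (two-sided) and p-values were adjusted over the 6 relations computed. Cd74 and H2-Aa had r = 0.96 and Spearman's rho = 0.95 over 50 mice (permutation test, adjusted p = 3e-05 and 2e-05), and r within single ages ran from 0.86 to 0.99. The raw p of 1e-05 behind r is the smallest these permutations can give. Ciita with H2-Aa gave r = 0.53 and rho = 0.48 (permutation test, adjusted p = 0.00024 and 0.0009), positive in all 6 ages with r from 0.11 to 0.95.

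Nlrc5 with H2-K1 gave r = 0.60 and rho = 0.51 (permutation test, adjusted p = 0.00016 and 0.00066), and Nlrc5 with B2m r = 0.51 and rho = 0.41 (permutation test, adjusted p = 0.00065 and 0.00326). Within ages these r ran from 0.35 to 0.89 and from 0.15 to 0.85, and both were highest at 28 months, the age that holds replicate 2. On TMM-normalized CPM the signs were mixed, with r within ages down to -0.20 for Nlrc5 with H2-K1 and -0.28 for Nlrc5 with B2m, positive in 5 and 4 of the 6 ages. Without the 2 mice farthest out in Nlrc5, replicate 6 of 18 months and replicate 5 of 8 months, r was 0.51 and 0.48 (permutation test, adjusted p = 0.00208 and 0.00431). On TMM-normalized CPM r without these 2 mice was 0.37 and 0.41 (permutation test, adjusted p = 0.0246 and 0.0147). Replicate 2 of 28 months stayed in, and r without it is not given.

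H2-K1 with H2-Aa, a gene of each class, gave r = 0.54 and rho = 0.65 (permutation test, adjusted p = 0.000588 and 2e-05). The r within ages ran from 0.63 to 0.88 at 18 to 26 months, with 0.48 at 8 months and 0.15 at 28 months, and was 0.61 without replicate 2 of 28 months and replicate 6 of 18 months. Cd68, a lysosomal protein abundant in macrophages, gave r = 0.64 and rho = 0.66 with H2-Aa (permutation test, adjusted p = 3e-05 and 2e-05), with r from 0.56 to 0.93 at the first 5 ages and 0.19 at 28 months. Whether r differed between 28 months and the other ages was not tested. For the other 3 relations r without the 2 farthest mice was 0.95 for Cd74, 0.50 for Ciita and 0.62 for Cd68, each with H2-Aa.

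**Figure D4:**
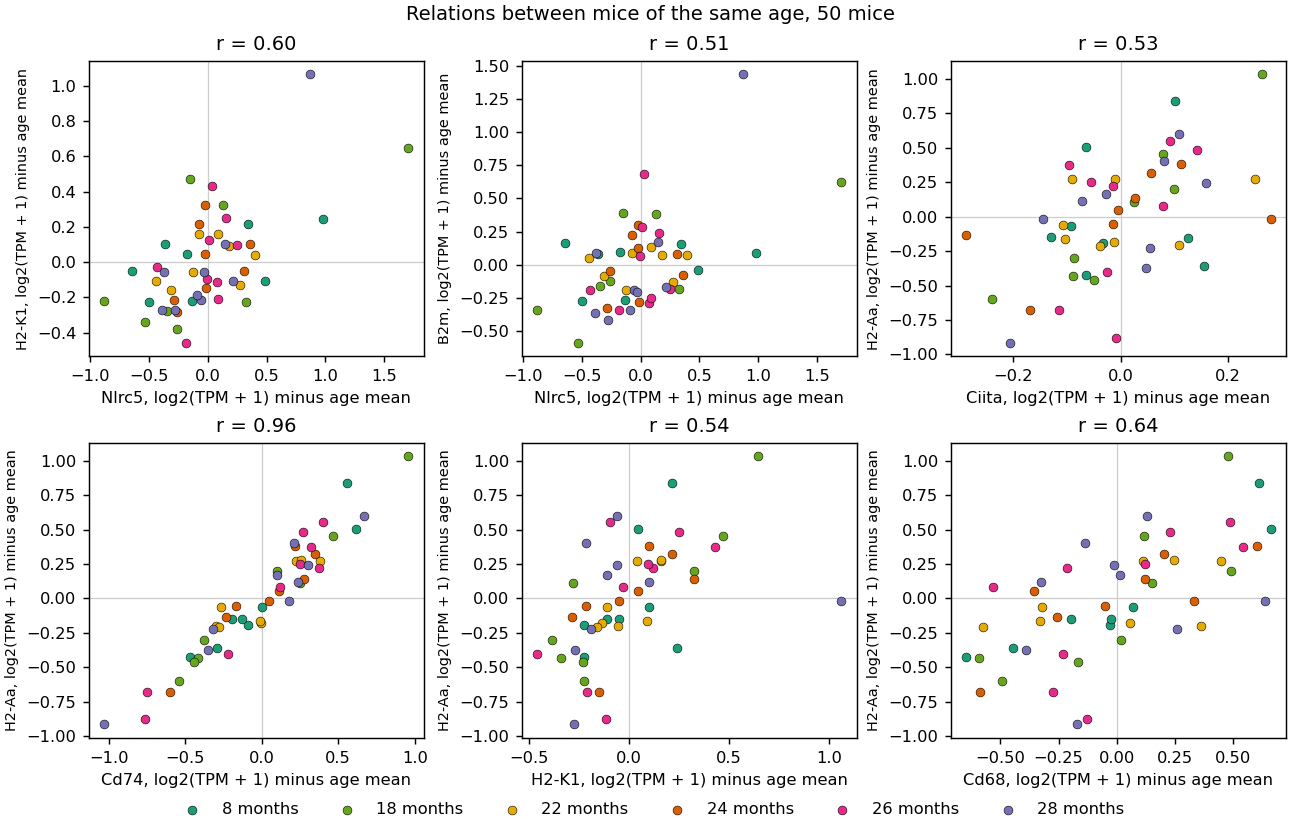
Each panel sets 1 gene against another (log2(TPM + 1) minus the mean of the age, both axes), with 1 point per mouse coloured by age and r over the 50 mice above it. Cd74 with H2-Aa lies along a line at r = 0.96, and in the panel of H2-K1 with H2-Aa replicate 2 of 28 months is the point farthest right.

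Markers of the cells known to carry class II were read beside it. Macrophage markers (Adgre1, Cd68, Csf1r, Mrc1, C1qa, C1qb, C1qc, Cd163, Fcgr1, Mertk, Lyve1, Cd14) summed to 141.9 TPM ± 21.9 (SD, n = 8) at 8 months and to 235.4 ± 78.2 (n = 9) at 28 months. In edgeR 7 of 12 were higher at 28 than at 8 months, where 21% of all genes were higher and 18.7% lower, with a median of 0.59 and 1.29 for Cd163 (SE 0.22, adjusted p = 9.7e-06). Without replicate 2 of 28 months 4 of 12 passed, with a median of 0.52. The other 8 mice of 28 months had a macrophage sum of 214.9 TPM ± 51.8 and a class II sum of 147.8 TPM ± 48.3. At 28 against 26 months, where the class II median was -0.58, the median of the macrophage markers was -0.0091. At 28 against 22 months, where that of class II was -0.61, it was 0.29, and 0.20 without replicate 2 of 28 months. In the fit without that mouse Adgre1 stood at -0.41, Fcgr1 at -0.24 and Cd68 at -0.012, while the other macrophage markers were positive. The 5 dendritic cell markers tested had a median of 0.11 at 28 against 22 months and of -0.21 without replicate 2 of 28 months. In the fit without it Siglech stood at -0.47, Cd209a at -0.30, Itgax at -0.21, Zbtb46 at 0.13 and Clec10a at 0.21. None of them passed there. The 5 leukocyte markers had a median of 0.31 in the same comparison and of -0.053 without that mouse. Coro1a stood at -0.27 and, without that mouse, at -0.69 (edgeR adjusted p = 0.0250). The other leukocyte markers then lay between -0.17 for Ptprc and 0.094 for Laptm5. For 28 against 8 months, markers of all leukocytes had 3 of 5 genes higher, and 0 of 5 without that mouse. Of the dendritic cell markers 1 of 5 tested was higher at 28 than at 8 months, Clec10a, a count near the share of all genes. Of the B and plasma cell markers Jchain, the 1 gene tested, was higher in this comparison (2.70, SE 0.57, edgeR adjusted p = 0.00013). The defining B cell markers Ms4a1 and Pax5 stayed under 1 TPM in every mouse, as did Xcr1, Clec9a and Flt3 of dendritic cells and Cd3e, Cd3d and Cd3g of T cells. The 9 B and plasma cell markers summed to 1.88 TPM at 8 months, 10.9 TPM at 26 months and 7.87 TPM at 28 months. T and NK cell markers summed to between 0.440 and 5.25 TPM at 28 months and none passed the count filter. Endothelial markers had 1 of 8 lower and muscle fibre markers 2 of 8 higher and 1 lower, again for 28 against 8 months. The part of these cells in the class II values was not tested.

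**Figure D5:**
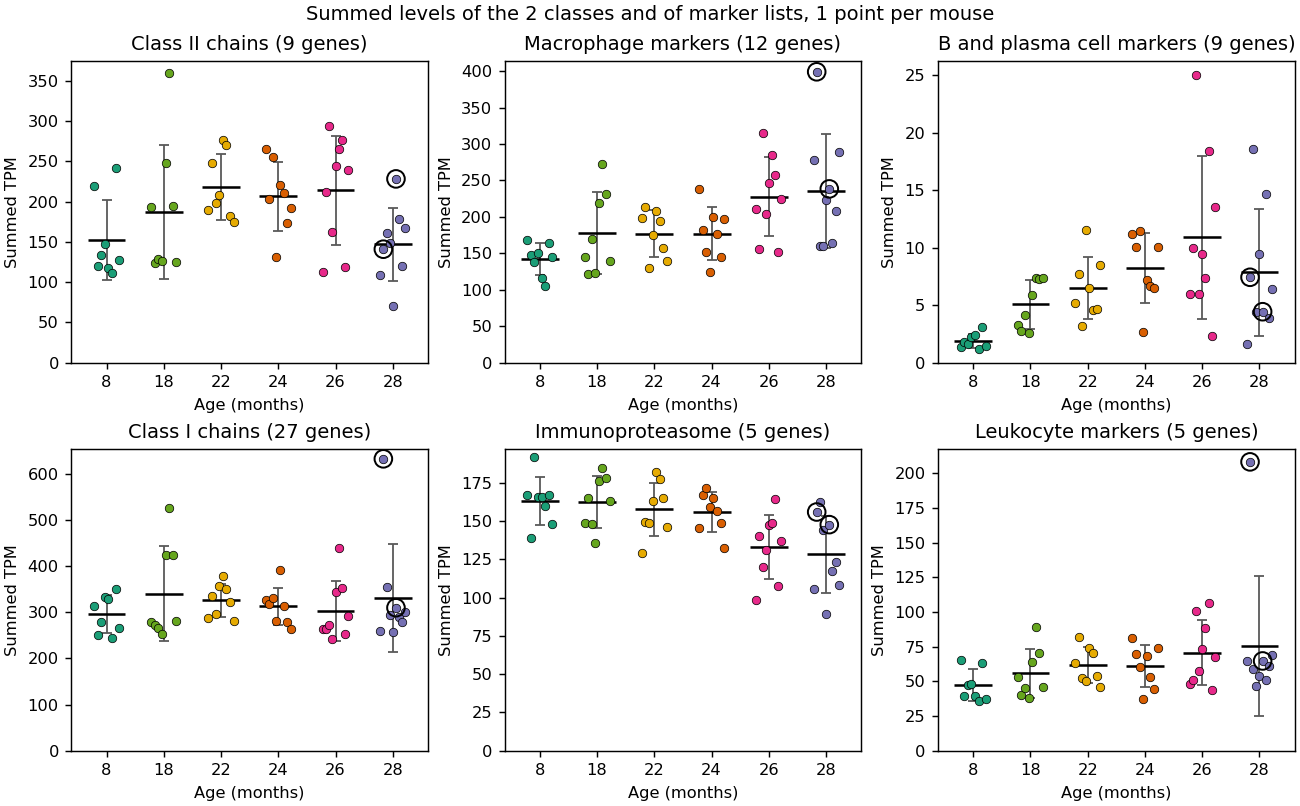
Summed TPM (vertical axes, from 0) of the 9 class II genes, the 27 class I genes, the 5 immunoproteasome genes and 3 lists of cell type markers, by age in months (horizontal axes), with 1 point per mouse, black lines at the mean and whiskers of 1 SD. The mean of class II is 213.9 TPM at 26 and 147.0 TPM at 28 months. That of the macrophage markers is 227.8 and 235.4 TPM, and 214.9 TPM at 28 months without replicate 2. The ringed points are replicates 2 and 6 of 28 months.

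Other genes of the 2 pathways were taken from fixed lists, and counts are for 28 against 8 months, to be read beside the 21% of all genes that were higher and the 18.7% that were lower. Without replicate 2 of 28 months these shares were 18.2% and 16.4%. Of the immunoproteasome and its activator, which cut peptides for class I, 2 of 5 fell and none rose: Psme1 by 0.56 and Psmb10 by 0.46 on the log2 scale (adjusted p = 4.9e-05 and 0.0020). The list median was -0.29, and its sum was 162.9 TPM ± 15.5 (n = 8) at 8 and 128.2 ± 25.3 (n = 9) at 28 months. Of the class I folding genes 1 of 5 rose, a count near the share of all genes. It was Canx (0.52, SE 0.08), an endoplasmic reticulum chaperone, which stood at 0.43 without replicate 2 of 28 months. Of the genes that cut and load antigen for class II, 4 of 8 rose, March1 (1.36), Ctsl (1.30), Ifi30 (1.16) and Ctss (1.06), with adjusted p-values from 9.2e-06 to 0.00017. Ctsl and Ctss are lysosomal cathepsins, Ifi30 is a lysosomal thiol reductase, and March1 is a ubiquitin ligase known to take class II molecules off the cell surface. The same count of 4 held without replicate 2 of 28 months, with Ifi30 at 1.17, Ctsl at 0.999, Ctss at 0.88 and March1 at 0.88.

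Of the 6 MHC-like genes outside the H2 region that were tested, 3 fell and none rose: Cd1d1, which presents lipids, by 1.36 on the log2 scale (SE 0.21, adjusted p = 1.2e-06), Fcgrt, the neonatal Fc receptor, by 0.74 (SE 0.09) and Hfe, a regulator of iron uptake, by 0.45 (SE 0.09). Without replicate 2 of 28 months 4 of 6 fell, Procr, the protein C receptor, being the fourth (-0.45, edgeR adjusted p = 0.0016, against -0.36 with all mice). Of 14 factors that act on MHC promoters or on interferon signals 4 rose, Irf8 (0.57), Irf2 (0.47), Rfx5 (0.43), a subunit of the complex on the X box, and Rela (0.34). Without that mouse 3 of 14 rose, Rela standing at 0.22 (edgeR adjusted p = 0.0163) and Irf2 at 0.34. These counts lie near the 21% of all genes that were higher and the 18.2% without that mouse. The counts of 1 in 4 and 1 in 5 that follow lie near the shares of all genes. Pirb, a receptor for class I on myeloid cells, rose by 1.37 as 1 of 4 receptors and costimulatory genes tested. Ifngr2, a chain of the interferon gamma receptor, fell by 0.70 as 1 of 5 interferon genes tested. Without replicate 2 of 28 months Pirb stood at 0.98 and Ifngr2 at -0.64.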

How the data were processed

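Whole gastrocnemius RNA of 50 mice at 6 ages had been sequenced from stranded polyA libraries. Per the labels and the methods, the authors trimmed reads with cutadapt 1.9.1 and assigned them with kallisto 0.43.1 to protein-coding Ensembl transcripts (GRCm38), dividing reads that fit several transcripts equally. They deposited 1 table of counts per gene and 1 of TPM per gene, and both deposited tables hold 23880 genes. Levels are TPM. Counts were tested with edgeR 4.0.16 (quasi-likelihood, TMM factors, 1 CPM in at least 8 mice, 1 fit of 6 ages, Benjamini-Hochberg, FDR 0.01) in R 4.3.3, SE being the log2 fold change over the root of F. DESeq2 1.42.0 and limma 3.58.1 were alternatives, and the fit was checked on simulated counts. Mice of an age are separate animals. Replicate numbers share no animal. Same-numbered mice of different ages had a median correlation of 0.051 (42 of 121 pairs over 0.1), against -0.0050 for differently numbered mice. They were not treated as pairs in the main fit, and a shared order of processing was not tested. No 2 mice of an age agreed within counting noise. Words of 31 bases were compared over 38575 transcripts of GENCODE vM21, which also gave gene coordinates. All kept members are named, with up to 4 genes past the threshold, by size of change, from each pathway list. The members and lists were chosen with earlier results of these data known.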

Additional observations from a re-analysis of the deposited data

Results flagged for a closer look

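In each age the highest and the lowest mouse of the 26 kept members were compared with the other mice by Dixon's criterion at 95%, over 156 groups of 8 or 9 mice. It marked 23 values, where chance marks about 1 group in 20 if levels are normally distributed. The levels were TPM without a log, for which this was not checked. Because the members move together between mice, these marks are not independent of each other.

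Replicate 2 of 28 months had 8 of the marks, all as the highest mouse: B2m at 533 TPM (next mouse 221), H2-D1 at 269 (126), H2-K1 at 230 (118), H2-Q4 at 43.3 (20.7), Erap1 at 24.1 (17.7), H2-Q7 at 17.7 (8.38), H2-Q5 at 4.55 (1.95) and Nlrc5 at 3.13 (1.63). The leukocyte, macrophage and muscle fibre values of this mouse stand beside the results above, and their part in these levels was not tested.

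Replicate 6 of 26 months had 5, H2-D1 at 183 TPM, H2-Q4 at 25.8, H2-Q7 at 13.2, H2-Q6 at 10 and H2-Q5 at 3.16. Replicate 6 of 18 months had 5, with H2-T23 at 33.6 TPM, Tap1 at 9.11, H2-T24 at 8.04 and Nlrc5 at 6.97 as the highest and H2-Ke6 at 50.3 as the lowest. The other 5 were H2-Q10 at 6.75 TPM in replicate 5 of 18 months and at 4.77 in replicate 5 of 24 months, H2-DMa at 6.92 in replicate 6 of 28 months, H2-DMb2 at 1.53 in replicate 3 of 26 months and H2-Ke6 at 77.0 in replicate 3 of 8 months.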

How the results depend on the processing

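For 28 against 22 months the count of 2 members was 1 with limma on log2(TPM + 1) or log2(TPM + 0.1), with RLE factors, without the filter on low genes and with only the 2 ages fitted, 4 with the replicate block, 8 at FDR 0.05 (42.6% of all genes), and between 1 and 7 without single mice. For any difference among ages the count of 1 was 3 with DESeq2 and the likelihood ratio test, 7 at FDR 0.05 (47.9% of all genes) and 0 to 3 without single mice. At FDR 0.05, with 34.2%, 53.1% and 2.63% of all genes called, the counts were 2 for 26 against 8 months, 3 for 28 against 8 months (2 class I and 1 class II) and 1 for 24 against 8 months. Without single mice, 26 against 8 and 28 against 8 months gave 1 to 2, and class II at 28 against 8 months 0 to 1. The cause was not tested. The replicate block changed no other count. Without replicate 2 of 28 months, chosen after seeing the data, the higher genes among macrophage, leukocyte and muscle fibre markers were 4, 0 and 1. All 6 relations passed with a pseudocount of 0.1 and on TMM-normalized CPM, where 2 were not positive in every age. No value past a threshold changed its sign in any alternative. Genes with few reads, such as H2-Q10, have wide errors.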
